A study of Rattus norvegicus with 8 samples.

Results

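The genes described here encode the machinery that makes ribosomes. RNA polymerase I transcribes the long precursor of ribosomal RNA in the nucleolus, small nucleolar RNA-protein particles (snoRNPs) guide its chemical modification and cutting, and further factors fold the pieces into the large and the small ribosomal subunit. Muscle makes more ribosomes when it grows, and the transcription factor MYC and nutrient signalling raise the expression of these genes in many tissues. A list of 37 genes was followed by symbol: 8 of the polymerase I machinery, Myc, 8 of snoRNPs, 4 multifunctional nucleolar proteins, 8 of large subunit processing and 8 of small subunit processing. Of these, 35 were measured among 14217 genes, through 47 probe sets. Taf1a and Npm1 had no probe set with that single symbol.

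The tissue was the epitrochlearis, a small forelimb muscle made mostly of fast fibres, from male Sprague-Dawley rats aged 6 weeks, with 1 array per rat. After 3 days of swimming practice every rat swam for 2 h and was then tube-fed 44 kJ, some 15% of its daily energy need. The meal held carbohydrate with an amino acid mixture (AAM, n = 4) or carbohydrate with whey protein hydrolysate (WPH, n = 4), which is whey protein cut into peptides. All rats had a restricted diet the day before, swam and then got a meal, so no resting or unfed control stands beside them. The labels do not say which rats shared a barrel, and no source used here gives the time between meal and sampling.

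Each value is the authors' deposited level on a log2-like scale, and the array medians lay between 6.6628 and 6.6629. Differences between arrays were minute on this scale: across the 8 arrays, the median SD of all probe sets was 3.69e-06. A difference can therefore not be read as a fold change. Values per array are given as deviations from the probe set's mean over the 8 arrays, in millionths of a deposited unit, and meals are compared by the standardized difference, WPH minus AAM divided by the SD within groups. Its 95% interval comes from the noncentral t distribution. Where a gene had several probe sets, the one with the highest mean level stands for it. The 10 measured fast fibre markers had mean levels from 11.3 to 14.1, and the 8 slow fibre markers from 9.91 to 11.99. In whole muscle, fewer cells of a type and less RNA per cell cannot be told apart. The number of arrays limits the precision.

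No gene of ribosome biogenesis differed between the meals past the threshold. Of the 35 measured genes, 11 were higher and 24 lower after WPH, and the median standardized difference was -0.13, against -0.06 over all 14217 genes. The value lay between -1 and 1 for 34 of the 35 genes and between -0.2 and 0.2 for 18 of them. By limma, 0 of the 35 had an adjusted p below 0.05, where the share over all probe sets was 0%. At an unadjusted p below 0.05 there was 1 (Noc3l, higher after WPH), where the share was 3.39% of all genes (1.57% higher and 1.82% lower) and 3.58% of all probe sets. The AAM and WPH arrays overlapped for each of the 35 genes, while 2% of all genes had groups that did not overlap. The 95% interval included 0 for all 35 genes. The intervals reached down to -2.25 for Nop2 and up to 3.33 for Noc3l. That of Polr1a, at a difference of -0.098, ran from -1.48 to 1.29, so with 4 rats per meal a difference of 1 SD in either direction lay inside it.

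**Figure D1:**
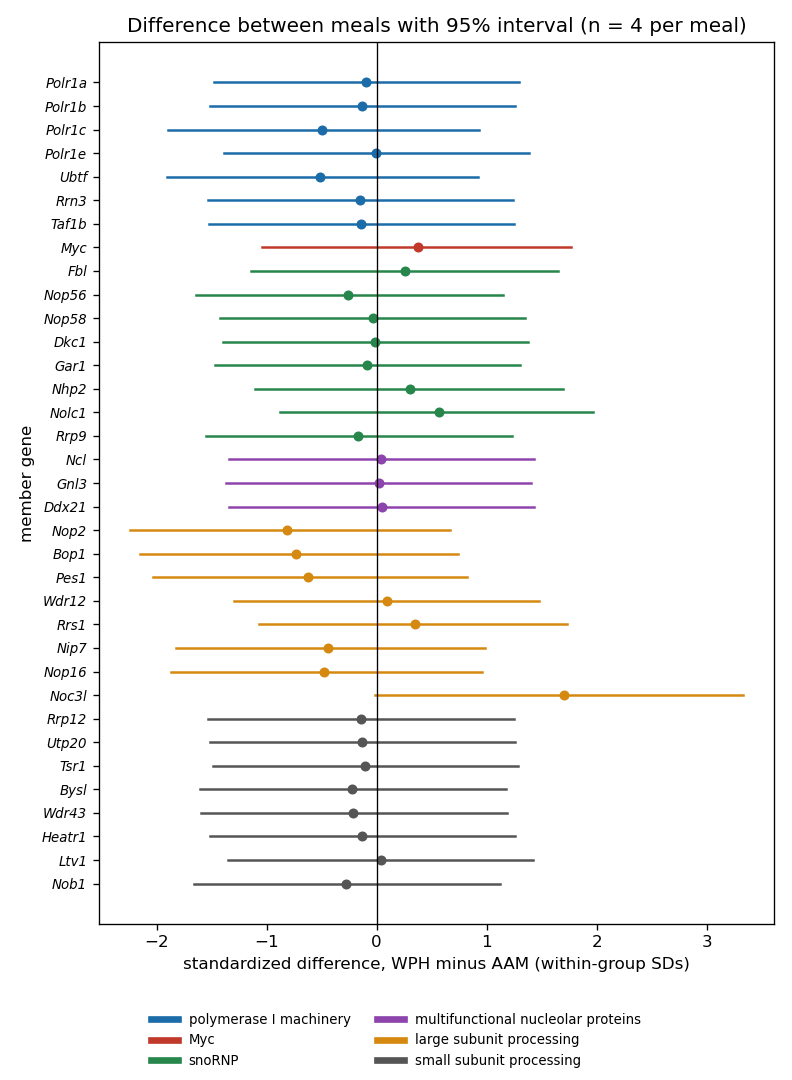
Standardized difference between meals for each of the 35 measured genes, WPH minus AAM in units of the SD within groups, with its 95% interval (n = 4 per meal). Every interval includes 0, and all points but that of Noc3l lie between -1 and 1.

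The direction of the list rested on single arrays. Over all genes 46.1% were higher after WPH, against 11 of 35 in the list. With any 1 of 3 arrays left out, namely AAM replicates 1 and 4 and WPH replicate 4, 25 of the 35 were higher. With AAM replicate 3 left out 4 were higher, without AAM replicate 2 or WPH replicate 1 there were 6, without WPH replicate 2 there were 9 and without WPH replicate 3 there were 13. With quantile normalization the count was 18 and with median centring of each array it was 5. Over all probe sets, 55.2% were higher after WPH with quantile normalization and 9.01% with median centring. No direction is therefore given for the list.

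**Figure D2:**
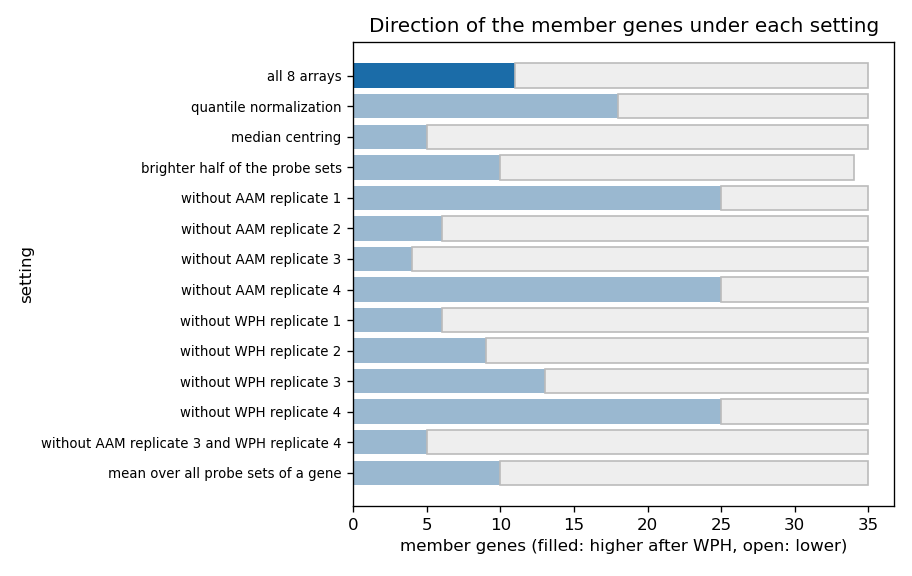
Number of measured genes of the list that were higher (filled) or lower (open) after WPH, with all 8 arrays (top bar) and under each other setting. The filled part runs from 4 genes without AAM replicate 3 to 25 genes when either AAM replicate 1 or 4, or else WPH replicate 4, is left out.

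The genes of the list were high and low on the same arrays, across both meals. For a list score, each gene was expressed as a z-score over the 8 arrays and averaged over the 35 genes. The score was 0.98, -0.19, -1.37 and 0.76 in AAM replicates 1 to 4 and 0.71, 0.18, -0.16 and -0.91 in WPH replicates 1 to 4. The lowest array of each meal, AAM replicate 3 and WPH replicate 4, stood at the bottom, and AAM replicates 1 and 4 and WPH replicate 1 stood at the top. Over all genes the same score stayed between -0.07 and 0.04. The mean score was 0.045 ± 1.07 after AAM and -0.045 ± 0.68 after WPH (SD, n = 4 each), so the spread within a meal was far larger than the difference between meals of -0.090. AAM replicate 3 and WPH replicate 4 had the lowest and second-lowest scores also with quantile normalization (-1.29 and -0.75) and with median centring (-1.53 and -0.73). Median centring moves all genes of an array by the same amount. The centred scores therefore hold that shift too and cannot show alone that the pattern of the list persists. The order at the top changed: AAM replicate 2 was at 0.77 with median centring, above AAM replicate 4 (0.26) and WPH replicate 1 (0.34). With quantile normalization AAM replicate 2 (0.32) and WPH replicate 2 (0.23) lay above WPH replicate 1 (0.20).

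**Figure D3:**
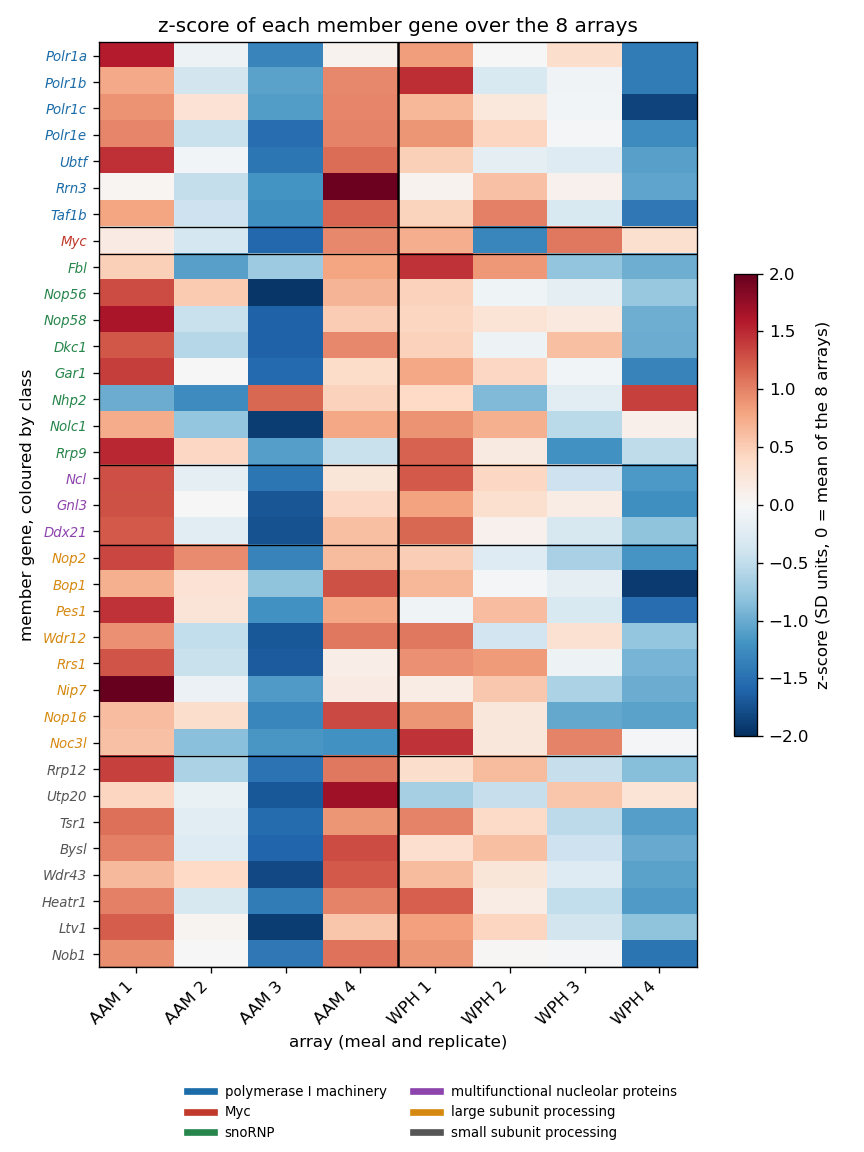
Each row is a gene of the list and each column an array. Colour gives the z-score over the 8 arrays, from blue (below the gene's mean) to red (above it), and gene names are coloured by class. The columns of AAM replicate 3 and WPH replicate 4 are blue in most rows, whereas Nhp2 runs the other way.

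Counts per array show the same pattern gene by gene. AAM replicate 3 was below the gene's own mean for 34 of 35 genes and WPH replicate 4 for 31 of 35, against 49.5% and 54.1% of all genes. AAM replicate 1 was below it for 1 gene, AAM replicate 4 for 2 and WPH replicate 1 for 2. Of the 4 AAM arrays, replicate 3 was the lowest for 32 of the 35 genes (31.1% of all genes), and of the 4 WPH arrays, replicate 4 was the lowest for 30 of 35 (31.8% of all genes). A combination, called the array combination or array pattern below, was then counted by sign alone, whatever the distance from the mean. It asked for values below the gene's own mean in AAM replicate 3 and WPH replicate 4. It also asked for values above that mean in AAM replicates 1 and 4 and WPH replicate 1. The combination was found in 28 of 35 genes. It was found in 13.9% of all genes and in 21.4% of those above the median level. This combination was chosen after the values were seen and is a description of these 8 arrays. The first principal component of the z-scores held 76.7% of their variance in the list, 59.3% in the 157 other pathway genes described further on and 29.6% over all genes. Small marker lists also reached high shares, 85.9% for 8 slow fibre genes and 71.7% for 6 fibroblast genes, so the share is not particular to the list.

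The list also varied more between rats than most genes did. The median SD over the 8 arrays was 51.4 millionths for the 35 genes and 5.37 for all genes, or 13.3 for the genes above the median level. Of the 35 genes, 12 exceeded the 90th percentile of all genes (108). Of the 33 that lay above the median level, 8 exceeded the 90th percentile of that brighter part (229). Myc had the highest SD of the list, 4238 millionths, followed by Rrp12, Tsr1, Gnl3 and Gar1. Nop16, Nolc1, Fbl and Nhp2 were the least variable, each below the median of all genes. For Nolc1 this holds for its brightest probe set, while another at a level of 7.80 had an SD of 93.7 millionths.

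The 4 genes next to Myc in spread, named here after their values were seen, belong to 3 classes and ran alike. The deviations of Rrp12 from its mean level of 8.39 were 2.06, -0.945, -2.22 and 1.58 thousandths of a unit in AAM replicates 1 to 4 and 0.539, 0.963, -0.694 and -1.29 in WPH replicates 1 to 4. Rrp12, an export factor of pre-ribosomes, was thus highest in AAM replicate 1 and lowest in AAM replicate 3. The deviations of Tsr1 from its mean level of 8.32 were 1.18, -0.218, -1.65 and 0.941 thousandths of a unit in AAM replicates 1 to 4 and 1.06, 0.417, -0.553 and -1.17 in WPH replicates 1 to 4. Tsr1, of small subunit assembly, was highest in AAM replicates 1 and 4 and WPH replicate 1. AAM replicate 3 and WPH replicate 4 were its lowest arrays. The deviations of Gnl3 from its mean level of 9.39 were 1.05, -0.00357, -1.42 and 0.336 thousandths of a unit in AAM replicates 1 to 4 and 0.660, 0.267, 0.121 and -1.01 in WPH replicates 1 to 4. The deviations of Gar1 from its mean level of 8.39 were 0.994, 0.0111, -1.13 and 0.261 thousandths of a unit in AAM replicates 1 to 4 and 0.553, 0.305, -0.0344 and -0.964 in WPH replicates 1 to 4. Gnl3, which encodes nucleostemin, and Gar1, a protein of box H/ACA snoRNPs, both had AAM replicate 1 and WPH replicate 1 as their highest arrays. In all 4 genes AAM replicate 3 was the lowest array and WPH replicate 4 the lowest of its meal, and the groups overlapped.

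**Figure D4:**
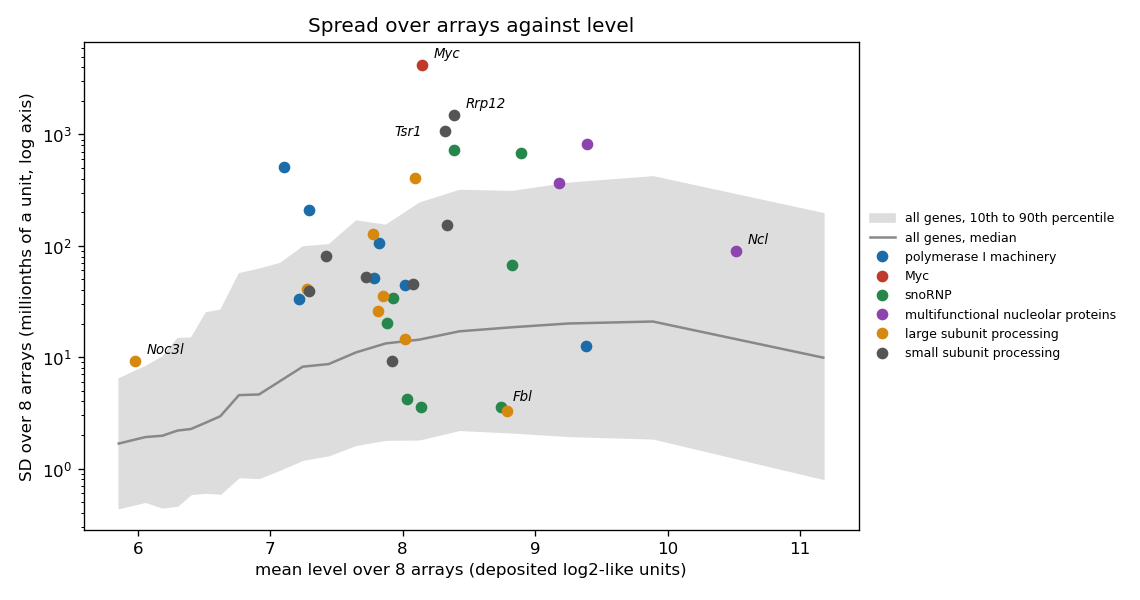
SD over the 8 arrays (log axis, millionths of a deposited unit) against mean level for the 35 genes, coloured by class. The grey band holds the 10th to 90th percentile of all 14217 genes in 20 bins of level, and the line is their median. Myc, Rrp12 and Tsr1 lie above the band, whereas Fbl and Nop16 lie below the line.

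The polymerase I machinery showed the array pattern in all 7 of its measured genes. Polr1a encodes the largest subunit of the enzyme. The deviations of Polr1a from its mean level of 7.10 were 796, -51.4, -674 and 37.1 millionths in AAM replicates 1 to 4 and 426, 3.28, 177 and -714 in WPH replicates 1 to 4. WPH replicate 4 and AAM replicate 3 were the lowest of the 8 and AAM replicate 1 the highest, so each meal held high and low arrays. WPH minus AAM was -0.098 within-group SDs (95% interval -1.48 to 1.29, exact permutation p = 0.914). Polr1c encodes a subunit shared with RNA polymerase III. The deviations of Polr1c from its mean level of 8.02 were 39.6, 12.8, -49.6 and 43.3 millionths in AAM replicates 1 to 4 and 29.3, 9.40, -2.64 and -82.2 in WPH replicates 1 to 4. WPH replicate 4 was lowest, and the groups overlapped. Its standardized difference of -0.50 had a 95% interval from -1.90 to 0.93 (exact permutation p = 0.486).

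Ubtf encodes the upstream binding factor, which holds ribosomal DNA open for transcription. The deviations of Ubtf from its mean level of 7.79 were 75.4, -3.14, -74.6 and 57.1 millionths in AAM replicates 1 to 4 and 24.3, -10.1, -13.3 and -55.7 in WPH replicates 1 to 4. AAM replicates 1 and 4 were highest and AAM replicate 3 lowest, and the groups overlapped. The standardized difference was -0.51 (95% interval -1.91 to 0.92), with an exact permutation p of 0.514. Ubtf had 4 probe sets, of which 1 was higher after WPH. The brightest and another followed the array pattern, while a dim probe set at a level of 5.97 was highest in AAM replicate 3, with a deviation of 3.64. Rrn3 encodes the initiation factor that couples polymerase I to growth signals. The deviations of Rrn3 from its mean level of 9.39 were 0.477, -6.03, -14.9 and 24.6 millionths in AAM replicates 1 to 4 and 0.795, 7.30, 1.04 and -13.2 in WPH replicates 1 to 4. AAM replicate 4 stood highest, and AAM replicate 3 and WPH replicate 4 lowest. WPH minus AAM was -0.15 within-group SDs (95% interval -1.53 to 1.24, exact permutation p = 0.886). Its dimmer probe set had -0.34 and the same low arrays. Polr1b, Polr1e and Taf1b, which encode 2 further polymerase subunits and a part of the promoter selectivity factor, had standardized differences of -0.13, -0.0016 and -0.14.

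Myc encodes a transcription factor that drives ribosome biogenesis genes. The deviations of Myc from its mean level of 8.15 were 0.724, -1.49, -6.66 and 4.06 thousandths of a unit in AAM replicates 1 to 4 and 3.10, -5.55, 4.45 and 1.36 in WPH replicates 1 to 4. Myc did not follow the array pattern, since AAM replicate 3 was lowest but WPH replicate 2 came next and WPH replicate 4 lay above the mean. Its standardized difference of 0.38 had a 95% interval from -1.04 to 1.76 (exact permutation p = 0.571). Of all measured genes, 99.1% had a smaller SD over the arrays. Among 11 genes of MYC partners and relatives, all measured, 6 were higher and 5 lower after WPH, and by limma 0 had an adjusted and 0 an unadjusted p below 0.05. The array combination was found in 2 of the 11. Max, which encodes the binding partner of MYC, had groups that did not overlap, as had 2% of all genes. Its standardized difference was -1.59 (95% interval -3.19 to 0.10, exact permutation p = 0.0286, the smallest possible), and limma's adjusted p was 0.9998. Max had 2 probe sets, and the values are those of the brighter. Mycl had -1.12.

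Among the snoRNP genes, 3 were higher and 5 lower after WPH, where 46.1% of all genes were higher. Fbl encodes fibrillarin, the enzyme that methylates ribosomal RNA at sites chosen by box C/D guides. The deviations of Fbl from its mean level of 8.75 were 1.71, -3.87, -2.59 and 2.77 millionths in AAM replicates 1 to 4 and 5.13, 3.10, -2.77 and -3.48 in WPH replicates 1 to 4. AAM replicate 2 was the lowest and WPH replicate 1 the highest, within a range of 9.01 millionths. The standardized difference was 0.26 (95% interval -1.14 to 1.64), with an exact permutation p of 0.600. Nop56 and Nop58, the other core proteins of these particles, had -0.26 and -0.036. A dimmer probe set of Nop56 had 0.061 and was lowest in AAM replicate 2. Nop58 ranged over 2.22 thousandths of a unit, with AAM replicate 1 at the top and AAM replicate 3 at the bottom.

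The box H/ACA particles, which convert uridine to pseudouridine, contain the products of Dkc1, Gar1 and Nhp2. Dkc1, the pseudouridine synthase, had -0.011 and Gar1 -0.090, both with the array pattern. The deviations of Nhp2 from its mean level of 8.03 were -4.17, -5.27, 4.81 and 1.92 millionths in AAM replicates 1 to 4 and 1.67, -3.71, -0.964 and 5.73 in WPH replicates 1 to 4. Nhp2 was highest in WPH replicate 4 and AAM replicate 3, the arrays where its partners were lowest. WPH minus AAM was 0.31 within-group SDs (95% interval -1.10 to 1.69, exact permutation p = 0.629). The direction depended on the processing. Quantile normalization gave Nhp2 a value of -2.98 (limma, unadjusted p = 0.00383, not past the adjusted threshold), and median centring -0.52. Nolc1 encodes a chaperone of snoRNPs. The deviations of Nolc1 from its mean level of 8.14 were 2.62, -2.74, -6.75 and 2.74 millionths in AAM replicates 1 to 4 and 3.20, 2.52, -1.93 and 0.353 in WPH replicates 1 to 4. AAM replicate 3 was lowest, and WPH replicate 4 lay close to the mean. Its standardized difference of 0.57 had a 95% interval from -0.87 to 1.97 (exact permutation p = 0.457). Its 4 probe sets were divided, with 2 higher and 2 lower after WPH, and the one at a level of 5.96 was highest in AAM replicate 3. The one at a level of 7.80 followed the array pattern. Its deviations were 128 millionths in AAM replicate 1, -108 in AAM replicate 3 and -161 in WPH replicate 4. Rrp9, of the snoRNP that acts in small subunit processing, had -0.17.

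The 3 measured genes of multifunctional nucleolar proteins had differences close to 0, from 0.020 to 0.048 SDs, with a direction set by single arrays. Without AAM replicate 3 Ncl, Gnl3 and Ddx21 had -0.46, -0.69 and -0.66, and without WPH replicate 1 -0.35, -0.22 and -0.31, whereas without AAM replicate 1 they had 0.50, 0.46 and 0.48. Ncl encodes nucleolin, an abundant RNA-binding protein of the nucleolus, and had the highest level of the list, 10.5. The deviations of Ncl from its mean level of 10.5 were 116, -17.4, -130.0 and 22.5 millionths in AAM replicates 1 to 4 and 111, 37.5, -37.0 and -103 in WPH replicates 1 to 4. In each meal replicate 1 was highest, and AAM replicate 3 and WPH replicate 4 were lowest. The standardized difference was 0.043 (95% interval -1.34 to 1.43), with an exact permutation p of 0.914. Ddx21 encodes an RNA helicase that acts in transcription and processing of ribosomal RNA. The deviations of Ddx21 from its mean level of 9.18 were 453, -74.9, -637 and 222 millionths in AAM replicates 1 to 4 and 419, 32.9, -119 and -295 in WPH replicates 1 to 4. The order of the arrays was that of Ncl, except that AAM replicate 4 stood above WPH replicate 2. WPH minus AAM was 0.048 within-group SDs (95% interval -1.34 to 1.43, exact permutation p = 0.971). A dimmer probe set of Ddx21, at a level of 6.86, had -0.60. It was below its mean in AAM replicate 3 and WPH replicate 4 but also in WPH replicate 1, and highest in WPH replicate 2. Gnl3, whose product is a nucleolar GTPase, had 0.020 and an SD over the arrays of 0.825 thousandths of a unit.

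In large subunit processing, 3 genes were higher and 5 lower after WPH, where 46.1% of all genes were higher. This class held the widest span between meals. Noc3l encodes a nucleolar factor of early large subunit assembly. The deviations of Noc3l from its mean level of 5.98 were 5.42, -7.70, -10.7 and -11.2 millionths in AAM replicates 1 to 4 and 13.3, 2.11, 9.21 and -0.420 in WPH replicates 1 to 4. AAM replicates 2, 3 and 4 were the lowest and 3 of the 4 WPH arrays lay above the mean, but AAM replicate 1 stood above WPH replicates 2 and 4. Its standardized difference of 1.70 had a 95% interval from -0.02 to 3.33 (exact permutation p = 0.0857). Its level of 5.98 was the lowest of the list and below the array median. Noc3l was the single gene of the list with an unadjusted p below 0.05 (limma, 0.0425, adjusted p = 0.9998). Quantile normalization gave Noc3l a value of -0.71, and median centring 0.015.

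Nop2 encodes a methyltransferase of large subunit RNA. The deviations of Nop2 from its mean level of 7.82 were 34.5, 24.5, -34.3 and 16.4 millionths in AAM replicates 1 to 4 and 12.5, -6.75, -16.6 and -30.3 in WPH replicates 1 to 4. AAM replicates 1 and 2 were the highest, but AAM replicate 3 was the lowest of all 8. The standardized difference was -0.82 (95% interval -2.25 to 0.67), with an exact permutation p of 0.314. Without AAM replicate 3 the standardized difference of Nop2 was -2.35 and that of Nop56 -2.08, with limma's unadjusted p of 0.0196 and 0.0310 and adjusted p of 0.9996 for each. Bop1, Pes1 and Wdr12, whose products form 1 complex needed for large subunit RNA processing, had -0.74, -0.63 and 0.095. Of the other assembly factors of the large subunit, Rrs1 had 0.35, Nip7 -0.44 and Nop16 -0.47. WPH replicate 4 was the lowest WPH array in all 8 genes of the class.

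In small subunit processing, 1 gene was higher and 7 lower after WPH, where 46.1% of all genes were higher. Values ran from -0.28 to 0.038, with a direction set by single arrays. Without AAM replicate 4 they ran from 0.012 for Nob1 to 0.48 for Utp20, so every gene of the class was higher. Without AAM replicate 3 they ran from -1.38 for Wdr43 to -0.70 for Heatr1, so every gene was lower. Nob1 encodes the endonuclease that makes the final cut in small subunit RNA. The deviations of Nob1 from its mean level of 8.08 were 42.4, 0.425, -65.0 and 49.3 millionths in AAM replicates 1 to 4 and 39.8, 1.14, -1.67 and -66.5 in WPH replicates 1 to 4. AAM replicate 3 and WPH replicate 4 lay almost equally far below the mean. WPH minus AAM was -0.28 within-group SDs (95% interval -1.66 to 1.13, exact permutation p = 0.543). Bysl encodes bystin, an assembly factor of the same particle. The deviations of Bysl from its mean level of 7.92 were 9.44, -2.44, -14.8 and 12.2 millionths in AAM replicates 1 to 4 and 3.17, 5.57, -3.79 and -9.35 in WPH replicates 1 to 4. AAM replicates 4 and 1 were highest, and AAM replicate 3 and WPH replicate 4 lowest. Its standardized difference of -0.22 had a 95% interval from -1.60 to 1.18 (exact permutation p = 0.743). Rrp12 had -0.15, and its 3 probe sets ran alike, all lower after WPH and all low in AAM replicate 3 and WPH replicate 4. Its brightest probe set ranged over 4.29 thousandths of a unit. Utp20 and Tsr1, which act early and late in small subunit assembly, had -0.14 and -0.11, Wdr43 and Heatr1, which act where transcription meets early processing, -0.21 and -0.13, and Ltv1, a late assembly factor, 0.038. A dimmer probe set of Wdr43 had 0.010. Utp20 alone in the class lay above its mean in WPH replicate 4.

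Other genes of the same pathway, listed by name but with earlier results of these data known, gave a similar picture. Of 157 measured genes outside the list, the 11 MYC partners among them, 55 were higher and 102 lower after WPH, with 0 at an adjusted p below 0.05 by limma and 1 at an unadjusted p below 0.05 (0.637% of them, against 3.39% of all genes). Their median standardized difference was -0.17, and 35.0% were higher after WPH, against 46.1% of all genes. That 1 gene was Ddx51, which encodes an RNA helicase of large subunit assembly. It had a standardized difference of -2.13 (95% interval -3.90 to -0.26), its groups did not overlap (exact permutation p = 0.0286, the smallest possible), and limma's adjusted p was 0.9998. Of the 157 genes, 2 had groups that did not overlap (Ddx51 and Max), against 2% of all genes.

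The array combination was found in 97 of these 157 genes, 61.8%, against 13.9% of all genes and 21.4% of those above the median level. Their score was -0.94 in AAM replicate 3 and -0.77 in WPH replicate 4, and 0.69, 0.79 and 0.53 in AAM replicates 1 and 4 and WPH replicate 1. By role, the combination was present in 42 of 53 further large subunit genes, 36 of 54 small subunit genes, 8 of 14 snoRNP genes and 7 of 15 polymerase I and shared polymerase subunits. Rrp1 stands in both subunit groups. The combination was present in 3 of 11 exosome genes, whose products trim ribosomal RNA ends among many other RNAs, and in 2 of the 11 MYC partners, or 18.2%. The genes of smallest unadjusted p in each group were Polr2h (-1.24) and Polr1h (-0.86), Tcof1 (-1.01), which encodes the nucleolar protein treacle, and Pop1 (-0.75), Mdn1 (-1.23), an ATPase of large subunit release, after Ddx51, Emg1 (-1.06) and Nol11 (-0.998), and Exosc5 (-1.04) and Exosc7 (-0.72), all with overlapping groups.

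**Figure D5:**
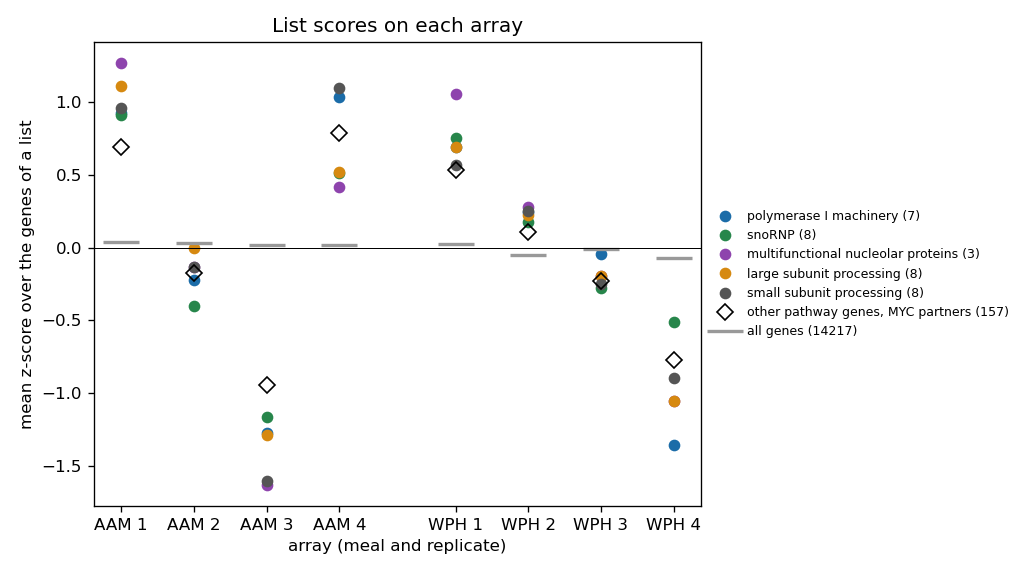
Mean z-score of the genes of each class on each array (numbers of genes in brackets). Filled points are the classes of the list, open diamonds the 157 other genes of the pathway, MYC partners included, and grey bars all genes. All plotted classes are lowest in AAM replicate 3 or WPH replicate 4, and the grey bars stay between -0.07 and 0.04.

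Other measures moved with these arrays in part. The fast fibre marker score was -0.68 in AAM replicate 3 and 1.23 in WPH replicate 4, and 9 of its 10 genes were higher after WPH. The slow fibre score was 0.13 and -1.19 on the same arrays and lowest in WPH replicate 3 (-1.24). The score of 8 macrophage markers, with levels from 7.06 to 10.9, was 0.28 and 0.91, that of 6 fibroblast markers, from 8.98 to 13.3, 0.68 and 1.38, and that of 4 erythrocyte markers, from 6.44 to 11.995, 0.97 and -0.71. The scores of 5 adipocyte markers (levels 6.09 to 11.9) were 0.66 and 0.54, of 6 endothelial markers (7.23 to 9.17) 0.45 and 0.11 and of 3 satellite cell markers (6.49 to 7.47) 0.71 and 0.07. Those of 4 neutrophil markers were -0.95 and 0.77, of 6 lymphocyte markers 0.04 and -0.99 and of 5 skin and epithelium markers 0.18 and -0.22. Levels of the neutrophil markers (6.18 to 6.31), lymphocyte markers (5.78 to 6.85) and skin and epithelium markers (6.03 to 6.79) lay near or below the array median. Adipoq (6.40), Plin1 (6.09), Lep (6.13) and Cidec (6.22) lay below it too, so the adipocyte range reached 11.9 through Fabp4 alone. Slc4a1 (6.44), Ahsp (6.77) and Alas2 (6.86) were near or below it, so the erythrocyte range reached 11.995 through Hbb alone. The Gapdh control probe set at the 5′ end had its lowest deviation in AAM replicate 3 (-0.562 millionths) and 0.268 in WPH replicate 4. That at the 3′ end had -0.0188 and 0.0313. The hexokinase 1 control probe sets had 0.112 and 0.156 at the 5′ end, 2.43 and 2.89 in the middle and -0.362 and 0.863 at the 3′ end. All these deviations were smaller than the median SD of all probe sets, 3.69e-06. AAM replicate 3 had the lowest weight, 0.608, and WPH replicate 4 the second-lowest, 0.817, when limma weighted the arrays by quality. The part of these measures in the shared pattern was not tested.

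The sequences before the transcription starts are shown because so many genes of the list were high and low on the same arrays. Promoters from RefSeq (GRCr8) were found for 31 of the 35 genes, and those of Myc, Bop1, Rrs1 and Wdr43 are not analysed here. The 250 bases before the start were searched on both strands for the MYC E-box CACGTG, which reads the same on both strands. It was present in 5 of 31, or 16.1%, against 7.57% of 13242 measured genes and 5.59% of all promoters of that length. The window around it is given for the first gene of each class by alphabet, with the E-box in capitals.
Dkc1: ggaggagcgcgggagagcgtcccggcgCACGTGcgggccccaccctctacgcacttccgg
Gnl3: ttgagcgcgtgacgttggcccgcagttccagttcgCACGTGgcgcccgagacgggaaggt
Pes1: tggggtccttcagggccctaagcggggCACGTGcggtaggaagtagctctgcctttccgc
Ltv1: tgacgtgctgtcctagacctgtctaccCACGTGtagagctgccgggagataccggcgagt
These lie at chrX:157751440-157751499 (Dkc1, plus strand), chr16:6219783-6219842 (Gnl3, minus strand), chr14:83074269-83074328 (Pes1, plus strand) and chr1:9398586-9398645 (Ltv1, minus strand). The fifth was in Utp20, and 0 of 7 polymerase I promoters held the motif.

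A second motif, CCGGAAG, to which ETS family factors bind, was present in 15 of 31 promoters, or 48.4%, against 12.2% of measured genes and 7.27% of all promoters. The 143 promoters of other pathway genes and MYC partners held it in 33.6% and CACGTG in 17.5%. The median GC content was 58.8% in the list and 58.8% in measured genes. The median number of CG pairs, which both motifs contain, was 17 in the list, 17 in other pathway genes and 14 in measured genes, and its part in the shares was not tested. In the list 2 promoters held both motifs. Windows are given for Polr1c, of the class with no E-box, and Noc3l, the gene with the largest difference between meals, both chosen after the values were seen. Capitals mark CCGGAAG or its reverse complement CTTCCGG.
Polr1c: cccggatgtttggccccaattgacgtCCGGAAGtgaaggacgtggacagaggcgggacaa
Noc3l: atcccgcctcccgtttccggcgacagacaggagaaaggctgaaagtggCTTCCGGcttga
These lie at chr9:22233202-22233261 (Polr1c, plus strand) and chr1:245997709-245997768 (Noc3l, minus strand). Noc3l, whose array order differed from that of the list, and Nhp2, which ran the other way, also held CCGGAAG, as did Polr1c, Bysl and Gar1, which followed the pattern. TATAAA was present in 2 of 31 promoters, or 6.45%, against 8.03% of measured genes. The palindromic motif of NRF1 was also searched and present in 0 of 31, against 2.80% of other pathway genes and 1.37% of measured genes. A match of letters is a description and not a binding site.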

How the data were processed

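Levels were the authors' deposited log2-like values, 1 per probe set and array. Per the submitters' processing notes R 2.7.2 was used. The normalization and the summary method, and with them scale and centring, stay unknown and are not given in these sources. Symbols came from the platform annotation (20826 of 31042 probe sets with 1 symbol, 436 with several, 9780 unnamed), with gene IDs matched for 20758. The 57 control probe sets were left out of the fits. WPH was compared with AAM with lmFit and eBayes of limma 3.58.1 under R 4.3.3 (all probe sets in one fit, two-sided, Benjamini-Hochberg adjustment, threshold 0.05). Exact two-sided permutation tests covered the 35 splits of 8 arrays, whose smallest p is 0.0286. The procedure was tested on simulated data with independent probe sets and added differences far larger than those seen in the list. That test cannot show whether differences of the size seen in the list would be detected. Per the labels each array is a biological replicate. Replicate numbers were not taken as pairs, since same-numbered arrays correlated between -0.078 and 0.167.

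The members and lists were chosen with earlier results of these data known. Values on every array are given for Polr1a, Ubtf, Rrn3, Myc, Fbl and Ncl and for the 2 genes with the smallest unadjusted p of each class, and the 2 with the smallest p of each other list are named. Promoter motifs other than CACGTG and the array combination were chosen after the values were seen. Alternatives were quantile normalization, median centring, the probe sets above the median level, the replicate block, array weights, a trended robust prior, unit SD, permutation p-values, other probe set rules and leaving out each array. Leaving out AAM replicate 3 with WPH replicate 4 was added after seeing the data.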

Additional observations from a re-analysis of the deposited data

Results flagged for a closer look

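Nop58, a core protein of box C/D snoRNPs, had 1 array far from the others of its meal. WPH replicate 4 lay at -0.663 thousandths of a unit, and the other WPH arrays between 0.135 and 0.290. The gap to the nearest array was 0.837 of the range of the 4 WPH arrays, above Dixon's critical value of 0.829. In all, 82 groups of 4 arrays were examined in this way, in which chance alone would pass about 4.1. WPH replicate 4 was the lowest WPH array for 30 of the 35 genes.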

How the results depend on the processing

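With 4 rats per meal all intervals were wide, and no gene of the list passed an adjusted p of 0.05 under any alternative run (adjusted p from 0.731 to 1). Over all probe sets, 5 passed with quantile normalization and none was a gene of the list, and the cause was not tested. The exact permutation p had its smallest possible value for 693 probe sets, and 0 passed limma's threshold elsewhere. Noc3l, the 1 gene with an unadjusted p below 0.05, ranged from -0.71 with quantile normalization to 3.18 with the replicate block. The number of genes of the list at an unadjusted p below 0.05 was 0 with median centring, with the probe sets above the median level and with unit SD per probe set. It was 1 with quantile normalization (Nhp2 at -2.98) and ran from 0 to 2 when single arrays were left out.

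With the replicate number as a block, which the correlations do not bear out as a pairing, 2 genes of the list had an unadjusted p below 0.05 (Rrp9 at -2.09 and Noc3l) and 0 had an adjusted one.

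The number of genes higher after WPH was 18 with quantile normalization, 5 with median centring, 4 to 25 with 1 array left out and 5 without AAM replicate 3 and WPH replicate 4, against 11. The median over all probe sets was -0.51 with median centring, against -0.04. Of all probe sets, 9.01% were higher after WPH with median centring and 55.2% with quantile normalization. The score difference ran from -0.66 without AAM replicate 3 to 0.23 without AAM replicate 1, within 1 SD of the reported value. Of 559 single-gene values, 544 moved by less than 1 SD and 15 by more. The trended robust prior, unit SD and the probe sets above the median level cannot change a standardized difference. Their values are counted among the 544.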
